A study of Rattus norvegicus with 4 samples.

Results

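Aquaporins are membrane channels that let water, and in some members glycerol, cross cells down its gradient. The 3 genes described here are Aqp1, Aqp4 and Aqp7, which were followed across 4 one-colour arrays of rat skeletal muscle. They were taken by matching the accession of each array probe to its gene, which gave 5 probes: 1 for Aqp1, 3 for Aqp4 and 1 for Aqp7. They are 3 of 26624 genes or unnamed transcripts on the array. All animals were males aged 15 weeks on a Wistar background. Wild-type (WT) Wistar rats, sedentary by the series description, gave 2 arrays. A sedentary SPORTS rat and an exercised SPORTS rat gave 1 array each, SPORTS being a hyperactive mutant line. The labels give neither the muscle, the kind of exercise nor the mutation. The titles of the WT arrays differ only in their last number. The labels do not say if the WT pair is 2 animals, so its spread may be technical.

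Aqp1 is a water channel known from the endothelium of muscle capillaries and from red blood cells. Aqp4 is the water channel of the muscle fibre membrane, most abundant in fast-twitch fibres, where it is tied to the dystrophin complex. Aqp7 is an aquaglyceroporin: it passes glycerol as well as water, lets adipocytes release the glycerol of lipolysis and is also found in capillary endothelium. The genes were chosen with their values on these arrays known, so their levels are given as a description and carry no p-value.

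Levels are log2 of the scanner's background-subtracted signal minus the 75th percentile of the same array, so 0 is that percentile. A level is set only against the same probe on another array. Between 46.0% and 50.3% of all probes carried the scanner's flag for being well above background. The exercised SPORTS array was the dimmest, with a 75th percentile of 864 against 1082 to 1111 on the other 3 arrays. It also stood apart from the rest. Against the WT pair, linear models (limma, adjusted p under 0.05) called 53.3% of 13326 genes in exercised SPORTS muscle and 6.27% in sedentary SPORTS muscle. With both SPORTS arrays as 1 group, limma called 0 genes, with 982 at an unadjusted p under 0.05. Each SPORTS condition has 1 array, so these calls rest on the spread of the WT pair and compare arrays, not groups of rats. Between the WT arrays the absolute difference had a median of 0.07 and a 95th percentile of 0.46 over the genes tested. Fast and slow fibre genes, the defining markers of the tissue, were all well above background where tested, 11 of 11 with a probe in each list.

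The 3 aquaporins took 3 different courses. Aqp4 was low on the sedentary SPORTS array alone, Aqp7 was low on the exercised SPORTS array alone, and Aqp1 moved by less than 1.7-fold over all 4 arrays. In sedentary SPORTS muscle 1 of the 3 genes, Aqp4, was under both WT arrays by 2-fold or more, like 2.17% of all genes tested, and 0 were as far above (1.88%). In exercised SPORTS muscle 1 of the 3, Aqp7, was under both by as much (10.7%), and 0 were above (7.88%). Between the SPORTS arrays, Aqp4 was 2-fold or more higher with exercise (9.11% of genes) and Aqp7 lower (12.8%). All 3 had the SPORTS arrays on opposite sides of the WT pair, as had 37.6% of genes. These contrasts were among those used to choose the genes, so nothing is read from the counts.

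**Figure D1:**
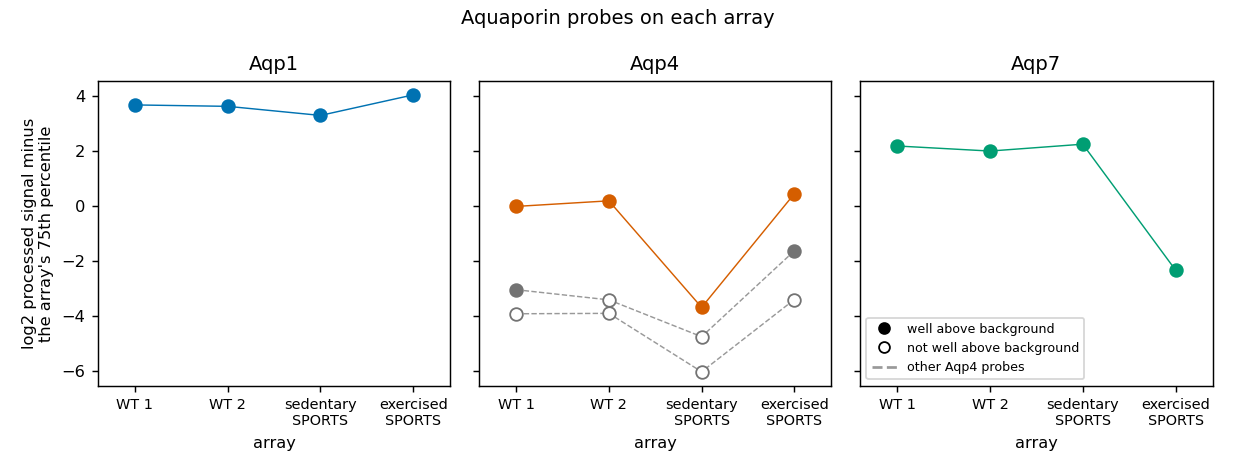
Level of each aquaporin probe on the 4 arrays (vertical axis, log2, scaled so that 0 is the 75th percentile of each array). Filled points were well above background and open points were not, dashed grey lines are Aqp4 probes 2 and 3, and lines only join the values of 1 probe. Aqp4 reads lowest on the sedentary SPORTS array on all 3 probes, though probes 2 and 3 were not well above background there. Aqp7 drops on the exercised SPORTS array, and Aqp1 stays between 3.28 and 4.02.

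The windows around the annotated transcription starts of Aqp1 and Aqp4 are shown because these water channels differed so much in how far they moved on the sedentary SPORTS array. They come from RefSeq on build GRCr8, are 300 bases long and run 5′ to 3′ on the strand of the gene. The table matched 2 of the 3 genes, with 1 window for Aqp1 at chr4:85812534-85812833 (plus strand). Aqp4 has 2 windows, chr18:6798793-6799092 and chr18:6797877-6798176 (minus strand). Capitals mark matches, searched on both strands, to the E-box CANNTG that muscle basic helix-loop-helix factors bind and to the TATA-box letters TATAAA. They also mark a loose form of the MEF2 core, a CTA and a TAG with any 4 bases between.
Aqp1: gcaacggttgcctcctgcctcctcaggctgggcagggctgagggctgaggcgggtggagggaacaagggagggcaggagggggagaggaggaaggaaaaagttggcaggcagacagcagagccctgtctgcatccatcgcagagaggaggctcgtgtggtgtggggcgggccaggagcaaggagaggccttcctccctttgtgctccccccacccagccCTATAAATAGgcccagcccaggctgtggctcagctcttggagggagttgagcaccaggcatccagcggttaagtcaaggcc
Aqp4 window 1: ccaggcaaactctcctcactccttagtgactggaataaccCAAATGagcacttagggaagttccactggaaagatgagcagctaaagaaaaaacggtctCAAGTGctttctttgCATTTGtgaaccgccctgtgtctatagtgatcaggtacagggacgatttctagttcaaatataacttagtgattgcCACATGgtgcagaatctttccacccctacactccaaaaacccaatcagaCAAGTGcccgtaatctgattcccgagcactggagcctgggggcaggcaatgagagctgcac
Aqp4 window 2: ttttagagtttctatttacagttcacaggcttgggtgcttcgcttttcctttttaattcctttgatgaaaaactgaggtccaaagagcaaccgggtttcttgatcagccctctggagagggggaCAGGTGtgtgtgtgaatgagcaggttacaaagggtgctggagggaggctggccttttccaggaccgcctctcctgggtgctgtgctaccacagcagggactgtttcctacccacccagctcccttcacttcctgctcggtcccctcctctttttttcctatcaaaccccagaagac
The Aqp1 window holds 1 TATAAA, which lies inside its 1 match to the loose MEF2 form, and 0 E-boxes. Of 33469 windows of this length, 14.2% hold TATAAA, 3.84% hold the loose MEF2 form and 72.1% hold an E-box. In Aqp4, window 1 holds 5 E-boxes and window 2 holds 1, and neither holds either of the other motifs. A match describes the letters only.

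Aqp1 differed little between the arrays. Its probe is printed at 10 spots, all well above background on every array, and the mean processed signal was 13868 and 13189 for WT, 10783 for sedentary SPORTS and 14064.5 for exercised SPORTS muscle. The scaled levels were 3.66 and 3.61 in WT, or 3.63 ± 0.04 (SD, n = 2), then 3.28 on the sedentary and 4.02 on the exercised array. The order was thus exercised, WT, sedentary, with the WT arrays 0.05 apart.

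Repeated spots separated these levels within the arrays. Spots ran from 3.23 to 3.32 on the sedentary array and from 3.96 to 4.12 on the exercised one. On WT arrays 1 and 2 they ran from 3.50 to 3.73 and from 3.57 to 3.66, so neither SPORTS array overlapped the WT spots. Spots share 1 labelled RNA and show the precision of the array, not the spread between rats. Against the WT mean, Aqp1 differed by -0.36 on the sedentary array (1.28-fold lower) and by 0.39 on the exercised one (1.31-fold higher). The SPORTS arrays differed by 0.75, or 1.68-fold. Both differences are larger than that between the WT arrays, and both lie under the 95th percentile of 0.46 that all genes reached between the WT arrays. The median absolute difference over all genes was 0.20 on the sedentary and 0.41 on the exercised array. The exercised difference moved with the scaling, to 0.22 with quantile normalization and 0.62 with scaling by the median, a setting that moved the median of all genes by 0.23 on that array.

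Markers of the cells that carry Aqp1 were read beside it. The summed level of 12 endothelial genes, each in units of the array's 75th percentile, was 16.2 and 17.0 for WT, 19.5 for sedentary SPORTS and 19.0 for exercised SPORTS muscle. Of 10 endothelial genes tested, none rose or fell on the sedentary array (limma, background 2.82% higher and 3.45% lower), with a median of 0.17. On the exercised array 1 rose and 3 fell, with a median of 0.14, where 27.3% and 26% of all genes were called higher and lower. Those 4 included Cdh5, which encodes the cadherin of endothelial junctions and fell by 2.09 (limma adjusted p = 0.00580), and the tight-junction gene Cldn5, which rose by 1.52 (0.00543). Emcn, an endothelial sialomucin gene, fell by 0.81 (0.0134). Tek was not well above background on any array.

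The summed level of red blood cell genes did not follow the order of Aqp1. The summed level of 8 red cell genes was 180 and 210 for WT, 136 for exercised SPORTS and 106 for sedentary SPORTS muscle, so the exercised array lay below WT here and above it for Aqp1. Of 5 tested, 1 was called higher on the sedentary array (background 2.82%), and on the exercised array 2 were called higher and 1 lower (27.3% and 26%), near the background. Among these calls, the alpha globin gene Hba-a3 was not well above background on either WT array. It entered the test only through the SPORTS arrays, so its calls are not counted as a result. Ahsp, the other gene called higher on the exercised array, differed by -0.03 on the sedentary and 0.49 on the exercised array. It was well above background on only 2 arrays. The bright alpha globin gene Hba-a1 differed by -0.92 on the sedentary and -0.60 on the exercised array, and globin genes share much of their sequence, so probes may not separate them. Alas2, the heme synthesis gene of red cells, differed by -0.84 and -0.45. Slc4a1 and Epb42, genes of the red cell membrane, were not well above background on any array. In whole muscle, fewer cells of a type and less RNA per cell cannot be told apart. The part of either cell type in the Aqp1 levels was not tested.

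Aqp4 was low on the sedentary SPORTS array. Its brightest probe gave a processed signal of 1077 and 1223 for WT and 1169 for exercised SPORTS muscle, but 86.0 for the sedentary SPORTS rat. The probe has 1 spot, and the scanner software put the error of these signals at 10.1% to 10.2% for the first 3 and 21.8% for the last. It counted as well above background on all 4 arrays, although on the sedentary array the dimmest signal with that flag was 80.2, just under the value of Aqp4.

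On the scaled log2 axis the levels were -0.03 and 0.18 in WT, or 0.08 ± 0.14 (SD, n = 2), 0.44 on the exercised and -3.69 on the sedentary array. The sedentary array differed from the WT arrays by -3.67 and -3.87 and from their mean by -3.77, or 13.6-fold, and the WT arrays lay 0.20 apart. This was the 12th lowest difference of 13326 genes tested. The exercised array lay 0.36 above the WT mean, or 1.28-fold, with 0.26 to the nearer WT array, so it was not far outside the spread of that pair. Exercised and sedentary SPORTS muscle differed by 4.13, or 17.5-fold, without a second array of either. With normexp background correction, run on the median signal and background with a constant of 50 added, the sedentary difference was -2.81.

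Each of the other Aqp4 probes, dim on most arrays, also read lowest on the sedentary array. Probe 2 read -3.05 and -3.42 on the WT arrays, -4.76 on the sedentary and -1.64 on the exercised array. It was well above background on WT array 1 and the exercised array, so the sedentary value and that of WT array 2 were not measured. Exercised SPORTS muscle was at least 4.45-fold higher than sedentary SPORTS muscle. This bound sets the exercised level against the dimmest signal that the sedentary array flagged as well above background. Between the 2 arrays that measured probe 2, it read -3.05 in WT and -1.64 with exercise, where the brightest probe read -0.03 and 0.44. Probe 3 read -3.92, -3.91, -6.03 and -3.41 in the same order and was not well above background on any array, so no fold is given for it.

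**Figure D2:**
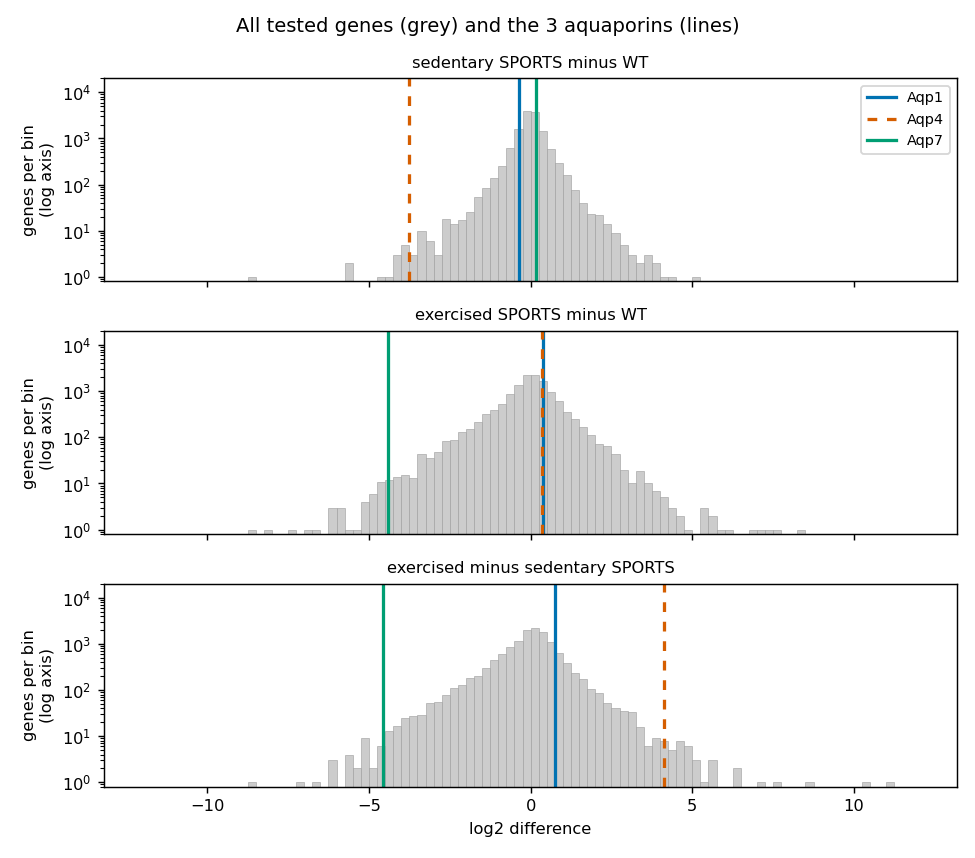
Log2 differences of all 13326 genes tested (grey, genes per 0.25-wide bin on a log axis) for sedentary SPORTS minus WT, exercised SPORTS minus WT and exercised minus sedentary SPORTS, with the 3 aquaporins as lines. Aqp4 stands in the lower tail at -3.77 in the first panel and the upper tail at 4.13 in the last, Aqp7 in the lower tail at -4.41 and -4.57 in the last 2 panels, and Aqp1 stays near the centre.

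Genes of fast fibres, the fibres in which Aqp4 is most abundant, were low on the same array. Of 11 tested, 5 fell and 0 rose in sedentary SPORTS muscle (limma, background 3.45% lower). Their median was -1.86, against -0.01 for all genes. The IIb myosin gene Myh4 fell by 3.78 ± 0.21 (SE) and the IIa myosin gene Myh2 fell by 3.64 ± 0.08 (adjusted p = 0.0365 and 0.0319, limma). A second Myh2 probe gave -5.15. With no filter on dim genes, limma called 0 genes on the sedentary array (5509 at an unadjusted p under 0.05), so these calls end under that setting. The summed level of the list was 1318 and 1340 on the WT arrays and 470 on the sedentary SPORTS array.

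On the exercised array the fast fibre genes spread widely in size. There 9 of 11 fast fibre genes rose and 1 fell (background 27.3% and 26%), with a median of 1.22 and a summed level of 3390. Myh4 rose by 7.40 and the calcium buffer gene Pvalb by 7.52 (adjusted p = 0.00426 and 0.00490, limma). Others lay near the 0.36 of Aqp4: Tnni2, a fast troponin gene, rose by 0.51, and Myh2 fell by 0.43. Slow fibre genes ran otherwise: their summed level was 2095 and 2041 in WT, 1968 on the sedentary and 447 on the exercised array. The sum is set by the brightest genes. On the sedentary array the slow fibre median was -0.04, with single genes from -0.23 (Atp2a2) to 1.12 (Pln). A second Atp2a2 probe gave 0.17 there. No label names the muscle, so exercise and the site sampled cannot be told apart between the SPORTS arrays. The part of fibre makeup in the Aqp4 values was not tested.

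The dystrophin complex, which holds Aqp4 at the fibre membrane, moved far less. Of 8 genes tested among 15 listed, none was called on the sedentary array (background 2.82% higher and 3.45% lower), with a median of -0.16 and the largest difference at -0.52 for the dystrophin gene Dmd (limma adjusted p = 0.0755). Aqp4 itself differed by -3.77 there. On the exercised array 3 rose and 2 fell, near the shares of all genes (27.3% higher and 26% lower). The sarcoglycan gene Sgcb rose by 0.99 (adjusted p = 0.00704, limma), and a second probe of it gave 0.86. Sntb1 and Nos1, which encode a beta-syntrophin and the neuronal nitric oxide synthase that also binds the complex, were not well above background on any array.

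**Figure D3:**
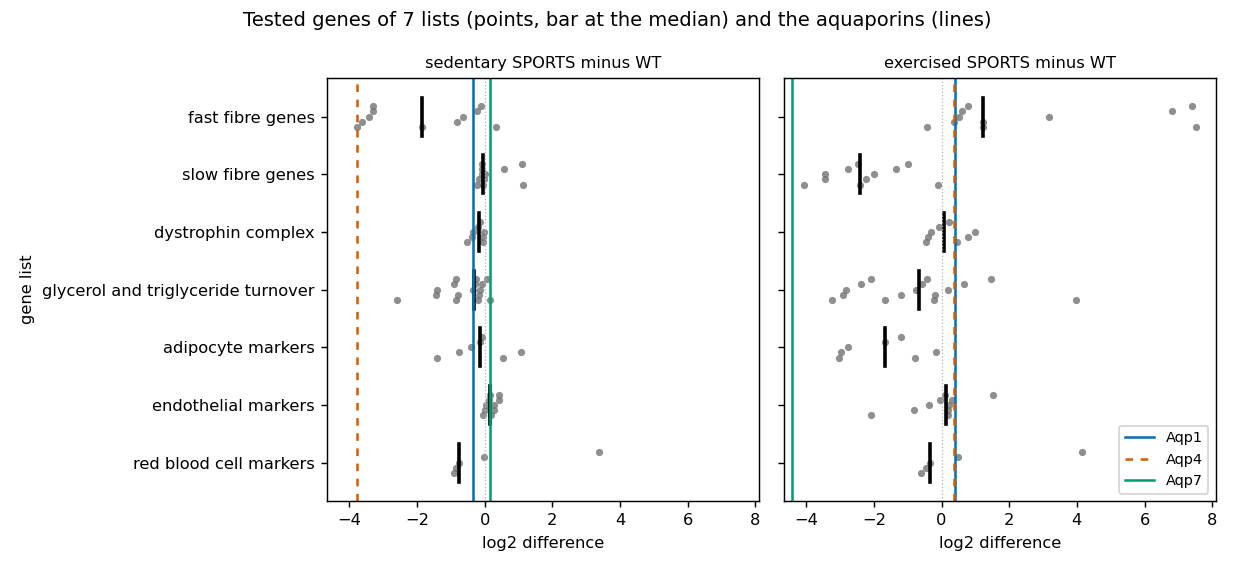
Log2 differences from WT of the tested genes of 7 lists (grey points, black bar at each median) on the sedentary (left) and exercised (right) SPORTS array, with the aquaporins as vertical lines. The Aqp4 line at -3.77 meets the lowest fast fibre genes on the left, and the Aqp7 line at -4.41 lies below every point of the right panel.

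Aqp7, the glycerol channel, was low on the exercised SPORTS array. Its processed signal was 4928 and 4281 for WT muscle, 5226 for the sedentary SPORTS rat and 171 for the exercised one. The single spot was well above background on all 4 arrays, and the scanner software put its error at 14.2% on the exercised array and lower on each of the others.

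Scaled levels were 2.17 and 1.98 in WT, or 2.08 ± 0.13 (SD, n = 2), 2.23 on the sedentary and -2.34 on the exercised array. The exercised array differed from the WT arrays by -4.51 and -4.32 and from their mean by -4.41, or 21.3-fold, the 41st lowest difference of 13326. Against the sedentary SPORTS array the difference was -4.57, or 23.8-fold. Sedentary SPORTS muscle lay 0.16 above the WT mean and 0.07 above WT array 1, while the WT arrays lay 0.18 apart, so the sedentary and WT levels did not differ beyond the spread of the pair.

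Genes that make, store and release triglyceride were split on that array. Of 16 tested, 8 fell and 3 rose on the exercised array (background 26% and 27.3%), with a median of -0.65 against 0.00 for all genes. The acyltransferase gene Agpat2 fell by 3.23, Lpl, the lipase that frees fatty acids at the capillary wall, fell by 2.91, and Gpam, which acylates glycerol phosphate, fell by 2.83 (adjusted p = 0.00424 each, limma). Gpd1, which links glycerol phosphate to glycolysis, rose by 3.99 (0.00424). Gk, which encodes the kinase that phosphorylates glycerol inside the cell, was called lower (0.00647) but was not well above background there. It was named after its value was seen. In sedentary SPORTS muscle 7 of the 16 fell and 0 rose (background 3.45% and 2.82%, median -0.32), while Aqp7 differed by 0.16. These sedentary calls also end with no filter on dim genes. Lpin1, among the genes that fell there, was not well above background on the sedentary array, so its fall has no exact size. Lipe was among the genes that fell on both SPORTS arrays. It was well above background only on the WT arrays and entered the test through them, so its calls are not read as a result.

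Adipocyte markers were also lower on the exercised array, though by less than Aqp7. The summed level of 9 of them was 28.8 and 34.4 for WT, 34.5 for sedentary SPORTS and 11.3 for exercised SPORTS muscle. Of 7 tested, 5 fell there and 0 rose (limma, background 26% and 27.3%), the median being -1.66, and Lep was not well above background on any array. The lipid droplet gene Cidea fell by 3.02, the adiponectin gene Adipoq fell by 2.97 and the adipsin gene Cfd fell by 2.76 (adjusted p = 0.00424, 0.0156 and 0.00803). Pparg, the receptor that drives adipocyte genes, fell by 1.66 (0.0179). Fabp4, the fatty acid binding protein gene of adipocytes and capillary endothelium, differed by -0.15 (0.271) and was named after its value was seen. Pparg and Lipe stand in both the adipocyte and the triglyceride list. As said above, Lipe was well above background only on the WT arrays, so its calls on either SPORTS array are not read as a result. On the sedentary array the adipocyte median was -0.15, with 1 gene called higher and 1 lower (background 2.82% and 3.45%).

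For the endothelium, the other site of Aqp7 named above, the summed marker level on the exercised array was 19.0 against 16.2 and 17.0 in WT. Single endothelial genes went both ways there: Cdh5 differed by -2.09, Emcn by -0.81 and Cldn5 by 1.52, with a median of 0.14 over those tested. Other lists were low on the exercised array as well, where 26% of all genes were called lower and 27.3% higher: all 6 fibroblast genes tested fell, with a median of -1.71, as did 10 of 11 slow fibre genes (-2.42), 5 of 7 macrophage genes (-1.55) and 3 of 3 heart genes (-2.68). Nerve and glial genes had 2 of 6 fall, near the background, with a median of -0.26, and smooth muscle and pericyte genes had 4 of 8 rise and 1 fall, with 0.32. The macrophage genes Adgre1 and Csf1r and the heart gene Tnni3 were not well above background on the exercised array, so their falls have no exact size. Of the 6 heart genes listed, Nppa, Nppb and Myl7 were not well above background on any array. The sedentary medians were 0.05 for fibroblast, -0.04 for slow fibre, 0.86 for macrophage, -0.52 for heart, 0.73 for nerve and -0.04 for smooth muscle genes. No list had a median as low as the Aqp7 difference of -4.41, and the part of any of these cell types in it was not tested.

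The other 9 aquaporin genes with probes, Mip and Aqp2, Aqp3, Aqp5, Aqp6, Aqp8, Aqp9, Aqp11 and Aqp12a, were not well above background on any of the 4 arrays. Their processed signals lay between 16.1 and 91.5. This family includes the water channels of the collecting duct, such as Aqp2, and the glycerol channels Aqp3 and Aqp9. A dim probe gives only a bound, so no difference is reported for them. Aqp1, Aqp4 and Aqp7 were thus the aquaporins of the list that these arrays could measure.

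For each aquaporin, the 5 genes with the closest profile were found among 8474 named genes tested. Closeness was the root mean square difference over the 4 arrays after each gene was centred on its own mean, a description that rests on 4 points. Closest to Aqp4 were Akr1b10 (0.14), the fast troponin genes Tnni2 (0.19) and Tnnt3 (0.35), Myh2 (0.37) and the tropomyosin gene Tpm1 (0.41). Tnni2 differed from WT by -3.31 on the sedentary and 0.51 on the exercised array, where Aqp4 differed by -3.77 and 0.36. Akr1b10 was well above background on 3 of the 4 arrays and its sedentary value was not measured, so its distance and place in the order are not fixed. A second Tpm1 probe gave 0.64 on the sedentary array, the other way from the -3.05 of the probe used.

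Closest to Aqp7 were Rspo3 (0.12), which encodes a Wnt-enhancing secreted protein, Galnt5 (0.13), the sodium channel gene Scn1a (0.17), Crym (0.20) and the slow myosin light chain gene Myl2 (0.21). Rspo3, Galnt5 and Scn1a were each well above background on 3 of the 4 arrays, so their distances and order are not fixed either. Myl2 differed by -0.07 and -4.06 from WT on the sedentary and exercised arrays, against 0.16 and -4.41 for Aqp7. Among the closest to Aqp1 were Uaca (0.01), Mgme1 (0.02), the adenosine kinase gene Adk (0.03) and Pds5a (0.03).

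**Figure D4:**
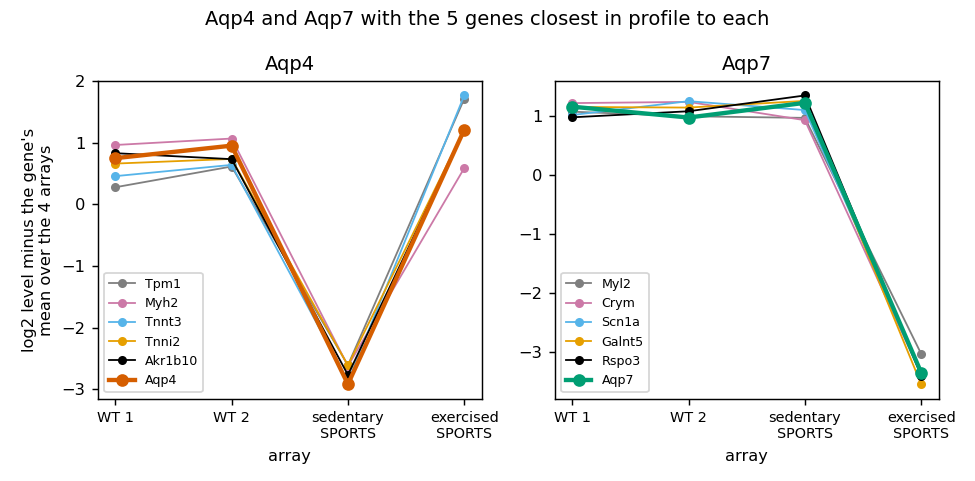
Level minus the gene's mean over the 4 arrays (log2) for Aqp4 and Aqp7 (thick lines) and the 5 genes closest to each, with a vertical scale of its own in each panel. The Aqp4 panel holds the fast fibre genes Tnni2, Tnnt3 and Myh2, all lowest on the sedentary SPORTS array, and the Aqp7 panel holds Myl2, lowest on the exercised one.

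The directions of the 9 differences among the aquaporins (3 genes, 3 comparisons) were the same under every setting tried for the brightest probes. Readings of the dim Aqp4 probes went the same way. Values under background have no exact size, and probe 3, under background on every array, gives no direction. For the brightest probe the Aqp4 difference on the sedentary array ranged from -3.87 to -2.81, and the Aqp7 difference on the exercised array from -4.51 to -3.90. That of Aqp1 ranged from -0.40 to -0.33 on the sedentary and from 0.22 to 0.62 on the exercised array.

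**Figure D5:**
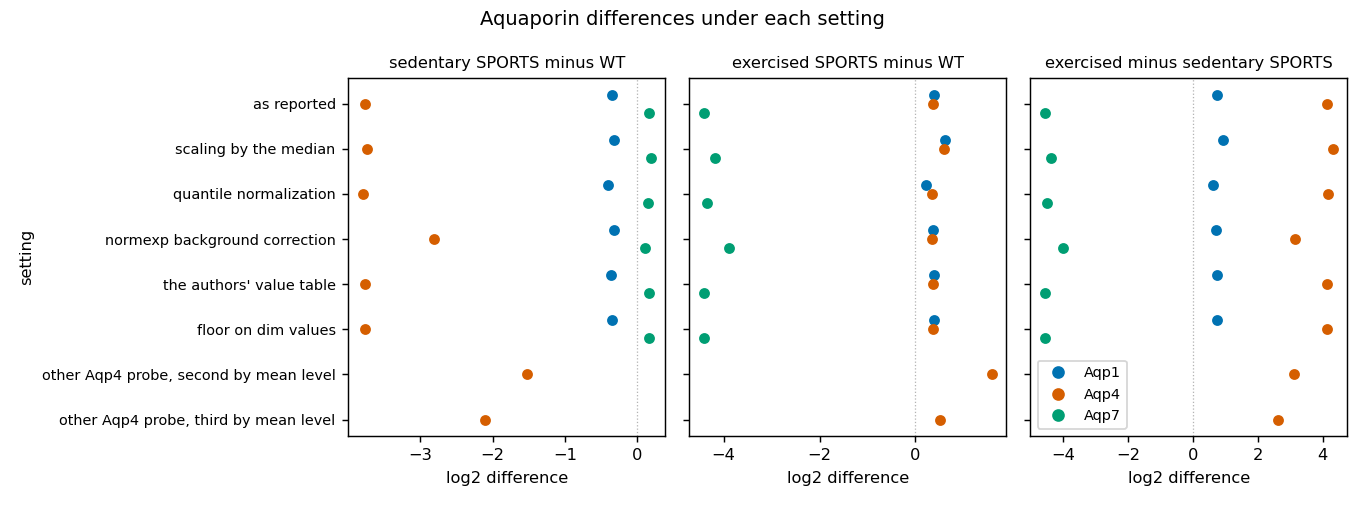
Log2 differences of Aqp1, Aqp4 and Aqp7 (horizontal axis) in the 3 comparisons under each setting (rows), with 1 point per gene and setting. The points of a gene stay on 1 side of 0 in each panel, and the Aqp4 values shift most with the probe.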

How the data were processed

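Total RNA of 4 muscles was labelled with Cy3 and hybridised to 1 array each, all on 1 slide per the file headers. Per the submitters' processing notes, scans were read with Agilent Feature Extraction 10.7.1.1. The deposited intensity values used were, per the file headers, the processed signal (background-subtracted, unscaled between arrays), its error, and the median signal and background. The authors' deposited log2 table followed the scaled log2 signal with an offset of at most 0.0032 between arrays, centred per probe. Its column medians were 0.02 and -0.02 for the WT, 0.17 for the exercised and -0.15 for the sedentary array.

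Control and outlier spots were dropped and spots of a probe averaged in log2, which left 30015 of 30367 probes. Accessions were matched to RefSeq symbols (assembly GRCr8, 59.4% of probes). A gene took its probe of highest mean and was tested if well above background on at least 2 arrays (13326 genes). No probe was saturated. A limma 3.58.1 (R 4.3.3) fit of 3 groups, with 1 residual degree of freedom, gave two-sided p-values with Benjamini-Hochberg adjustment, called below 0.05. A fit of both SPORTS against both WT arrays had 2. The fits were run on simulated data with a common spread for all genes and the same change on both SPORTS arrays. The real arrays differ from that setting, so the run does not show how reliable the calls are. The genes, lists and the naming rule (all probes of the 3 genes, at most 4 genes of largest difference per list, 5 closest profiles) were chosen with earlier results of these data known. Alternatives were other scaling, background correction, filters, a floor, a variance trend, the authors' table and leaving out arrays. The number of arrays limits all precision. A few genes that met the naming rule are not reported here.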

Additional observations from a re-analysis of the deposited data

Results flagged for a closer look

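All 3 aquaporins stood on opposite sides of both WT arrays on the SPORTS arrays, as 37.6% of the 13326 genes tested did. The exercised less the sedentary difference from WT was 0.75 on the log2 scale for Aqp1, 4.13 for Aqp4 and -4.57 for Aqp7. These differences were not tested, since each SPORTS condition has 1 array. For Aqp7 the sedentary array lay only 0.07 above the higher WT array, and for Aqp4 the exercised array lay 0.26 above the higher one.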

How the results depend on the processing

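No direction of the 9 aquaporin differences turned in 63 recomputed values, and 43 of these moved by less than the SD of the WT pair. Many of the 43 could not have moved further, so their number does not measure stability. Leaving out 1 WT array always moves a difference by the same part of that SD. The floor lay under every value of the probes used, and the authors' table follows the same scaled signal. With the median as the scale, Aqp1 was 0.62 (exercised minus WT) and 0.94 (exercised minus sedentary), Aqp4 0.59 and 4.32, and Aqp7 -4.19 and -4.38. With quantile normalization Aqp1 was -0.40 on the sedentary array, 0.22 on the exercised array and 0.62 between the SPORTS arrays. With normexp, Aqp1 was 0.70 between the SPORTS arrays, Aqp4 was -2.81 on the sedentary array and 3.15 between the SPORTS arrays, and Aqp7 was -3.90 on the exercised array and -4.01 between the SPORTS arrays. Aqp4 probe 2 gave -1.52 (sedentary), 1.60 (exercised) and 3.12 (between), and probe 3 gave -2.11, 0.51 and 2.62. Probe 3 was under background on all arrays and probe 2 on the sedentary array and WT array 2. These are thus readings of dim spots with no exact size, and probe 3 gives no direction. Why these values moved was not tested. Counts of calls moved more. In SPORTS against WT, limma called 0 genes, 1 with quantile normalization, 1 with normexp, and 0 to 7097 with 1 array left out: 836 without the exercised and 7097 without the sedentary SPORTS array. On the sedentary array 836 genes became 2110 with normexp, 1611 with a floor, 2170 with genes above background on all 4 arrays, 2816 with a variance trend and 0 with no filter (5509 at an unadjusted p under 0.05, limma). On the exercised array 3634 were called higher and 3463 lower, and 5571 and 2505 with the median as the scale. Between the SPORTS arrays 2920 genes differed at least 2-fold, with 1214 above and 1706 below in exercised muscle, or 1663 and 1354 with the median as the scale, and 4887 with no filter. No paired analysis was possible, since nothing in the labels links a WT to a SPORTS array and each SPORTS condition has 1 array. Dim probes limit Aqp4 probes 2 and 3 and the other aquaporins.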
